A study of Mus musculus with 21 samples.

Results

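Tuft cells sorted from the mouse colon were compared with tuft cells sorted from 4 other tissues, the small intestine, gall bladder, thymus and trachea. The colon group was taken from the library labels and held 4 of the 21 mRNA libraries of the series and 4 of its 18 tuft libraries. Each gene in colon tuft was compared with an average over the 4 tissue means, so that each tissue counted equally, and also with each tissue in turn. The other tuft libraries came from small intestine (n = 3), gall bladder (n = 3), thymus (n = 4) and trachea (n = 4). Small intestinal epithelium without reporter signal (n = 3) was used only to show levels outside tuft cells. All mice were naive C57BL6.Il25(Flare25/Flare25) animals, in which a fluorescent reporter marks cells that express Il25. Tuft cells were sorted as DAPI-;CD45-;EPCAM+;Flare25+ and the non-tuft cells with the same gate but Flare25-. The colon, small intestine, gall bladder and thymus libraries each came from 1 male mouse of 12 weeks. Each trachea library was a pool of 4 mice of 12 to 16 weeks, male in pools 1 and 2 and female in pools 3 and 4. Epithelium of the colon, small intestine and gall bladder was released with EDTA, whereas thymus and trachea were digested with enzymes. Tissue and preparation therefore cannot be told apart for thymus and trachea. No reporter-negative colon library was analysed here, so levels outside tuft cells are known for the small intestine alone.

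Tuft cells are chemosensory epithelial cells that detect luminal or airway cues through taste-type receptors, the G protein gustducin and the channel TRPM5, and that release IL-25, leukotrienes and acetylcholine. Their identity depends on the transcription factor POU2F3. The colon differs from the small intestine in its patterning genes, in net uptake of salt and water, in the use of short-chain fatty acids made by bacteria, and in a thick mucus layer.

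Colon tuft libraries held 44913559 to 52306054 counts from 13500 to 16000 sorted cells, with 17.7 to 23.0% of counts on mitochondrial transcripts. The 18 tuft libraries ranged from 25739248 to 70243068 counts and from 130 to 36000 cells. The mean correlation of log2 levels across genes was 0.969 among colon tuft libraries. Between colon tuft and the others it was 0.896 for small intestine tuft, 0.811 for gall bladder tuft, 0.774 for thymus tuft, 0.757 for trachea tuft and 0.903 for small intestine non-tuft libraries. Genes are not independent replicates, so these values describe the libraries only. The median coefficient of variation between replicates was 0.188 in colon tuft, 0.231 in thymus tuft, 0.140 in small intestine tuft, 0.514 in trachea tuft and 0.458 in gall bladder tuft.

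The tissue label was checked with Hoxb13, a patterning gene of the hindgut, and Car1, a carbonic anhydrase of colon epithelium. Levels are in CPM, the count of a gene relative to the library total after TMM scaling. Hoxb13 (ENSMUSG00000049604; GRCm38 chromosome 11, 96194316 to 96197447) was at 34.1, 44.3, 90.5 and 61.4 CPM in the 4 colon tuft libraries, against 0 to 1.55 CPM (median 0.0381) in the 14 other tuft libraries. Car1 (ENSMUSG00000027556; chromosome 3, 14766216 to 14808368) was at 1392, 744, 567 and 808 CPM in colon tuft and at 0 to 9.4 CPM (median 1.02) in the other tuft libraries. All 4 colon libraries lay far above all others for both genes, as the label says. Pou2f3 was at 188, 207, 170.2 and 170.1 CPM in colon tuft and at 11.7, 11.6 and 15.1 CPM in the small intestine non-tuft libraries. Epcam, the sorted epithelial surface protein, was at 1391 to 1610 CPM in colon tuft and at 672 to 1546 CPM (median 830.1) in the other tuft libraries. Ptprc, which encodes CD45, was at 78.9 to 122 CPM in colon tuft against 8.97 to 171 CPM (median 84.8) in the other tuft libraries, and passed no test (log2 fold change 0.22, edgeR quasi-likelihood adjusted p = 0.784).

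Of 19850 genes tested, 2122 (10.7%) were higher in colon tuft than in the mean of the other tuft tissues and 1148 (5.78%) were lower. A call needed a fold change of at least 2 and a Benjamini-Hochberg adjusted p under 0.05 in edgeR's quasi-likelihood test. The comparison averages log levels over tissues, so 1 tissue with a very high level weighs less than in a plain mean of CPM. For 197 of the 2122 genes called higher, the mean CPM in colon tuft was below the plain mean of the 4 other tissue means, and for none of the 1148 called lower was it above. The median log2 fold change over all genes was -0.01. The DESeq2 test called 2000 genes higher and 1895 lower, so that 51.3% of its calls were higher, against 64.9% in the edgeR test. A call against the mean did not often hold against every tissue. Of the 2122 genes that were higher, 809 were also called against exactly 2 of the 4 tissues, 498 against 3 and 123 against all 4. Of the 1148 that were lower, 446 were also called against 2, 485 against 3 and 135 against all 4.

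The distance from colon tuft differed between tissues. Against small intestine tuft 885 genes (4.46%) were higher in colon tuft and 775 (3.9%) lower. Against gall bladder tuft 1836 (9.25%) were higher and 1783 (8.98%) lower. Against thymus tuft 1488 (7.5%) were higher and 3593 (18.1%) lower, and against trachea tuft 2848 (14.3%) were higher and 2530 (12.7%) lower. The median log2 difference over all genes was 0.12 against small intestine tuft, 0.13 against gall bladder tuft, -0.25 against thymus tuft and 0.01 against trachea tuft. The number of sorted cells and the spread between replicates also differed between these tissues, so the counts of calls are not on an equal footing.

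The 123 genes (0.62% of those tested) called higher in colon tuft than in each other tuft tissue are named colon-restricted below. Without small intestine tuft library 2, 3 or 4 they numbered 76, 70 or 74, and they numbered 198 with the DESeq2 test and 456 with limma voom. In 122 of the 123 genes, all 4 colon libraries lay above all 14 others, against 569 (2.87%) of all genes tested. The same libraries chose these genes, so this is no separate support for them. The other tissue with the highest mean was thymus tuft for 66 of them, small intestine tuft for 37, trachea tuft for 12 and gall bladder tuft for 8. For 39 of them the mean was under 1 CPM in each other tuft tissue. In small intestine non-tuft cells 42 had a mean under 1 CPM, and 3 had a mean above that of colon tuft. The 135 genes (0.68%) called lower than in each other tuft tissue did not overlap in 97 cases. Over all genes tested, 204 (1.03%) had all 4 colon libraries below all others, and here too the same libraries chose the genes. Of these 135, 73 had a higher mean in small intestine non-tuft cells than in colon tuft.

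**Figure D1:**
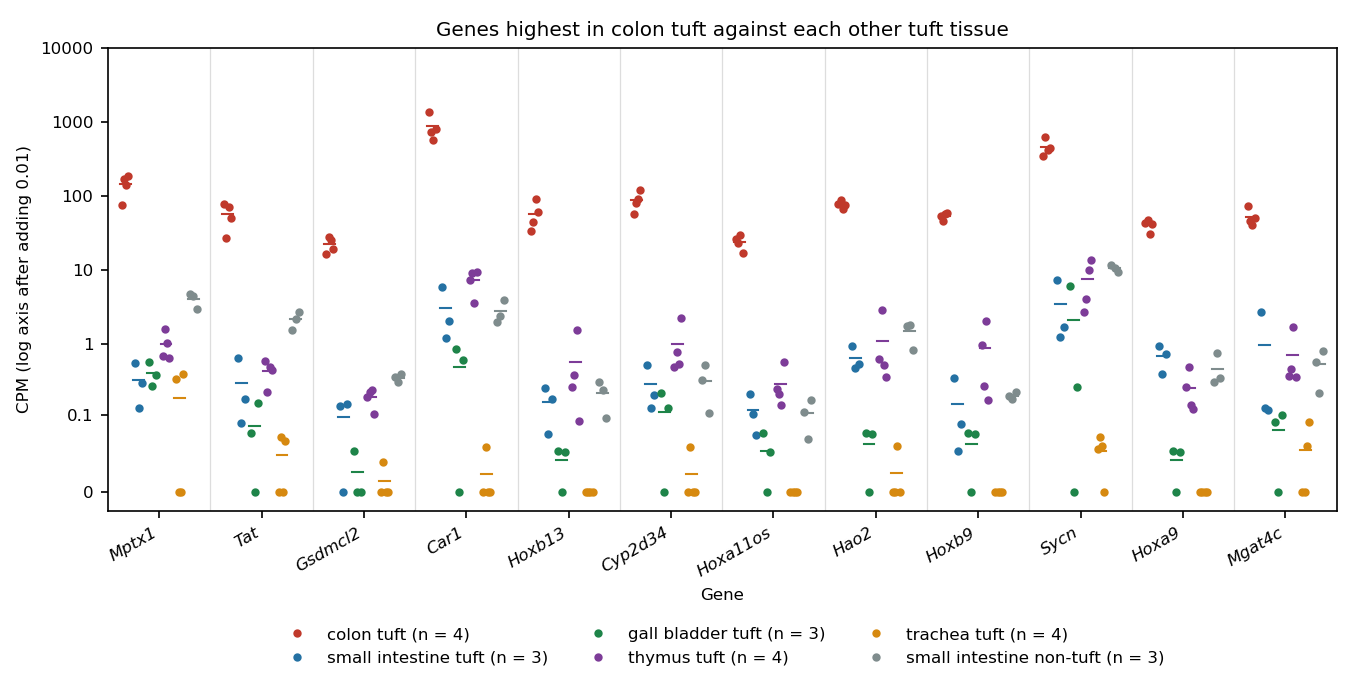
Level in each library (points; CPM on a log axis after adding 0.01) and group mean (bars) of the 12 colon-restricted genes of the naming rule, with colon tuft first and small intestine non-tuft last. The 4 colon tuft libraries lie above all other tuft libraries for each gene.

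The colon-restricted genes lay partly in clusters on the genome. Of the 123, 7 stood within 100 kb of one another in the HoxA cluster (GRCm38 chromosome 6, 52214491 to 52260880). The Gsdmc cluster held 4 (chromosome 15, 63824346 to 63912297) and the HoxB cluster 3 (chromosome 11, 96194316 to 96276595). Pairs stood in the HoxD cluster and at Cyp2d12 and Cyp2d34, Hsd3b2 and Hsd3b3, Foxd2 and 9130410C08Rik, Lypd8 and 1810065E05Rik, and Muc3 and Muc3a. Reads of near-identical copies (the Gsdmc genes, the Cyp2d genes, Muc3 with Muc3a) may be split between them. The sources used here do not give whether counting used strand, so the levels of overlapping and antisense genes are uncertain too.

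Promoters of 4 colon-restricted genes of different function are shown as examples, which do not give the share of such genes with a motif. Each runs from 250 bases before to 50 bases after the RefSeq start (GRCm38.p6), read on the gene's strand, and capitals mark CAATAAA or its reverse complement, a sequence bound by posterior HOX proteins including HOXB13. Mptx1 encodes a mucosal pentraxin, Hoxa9 a patterning factor, Aqp8 a water channel and Cyp2c55 a cytochrome P450. The windows are chr1:174330268-174330567 (+ strand), chr6:52227321-52227620 (- strand), chr7:123462044-123462343 (+ strand) and chr19:39006769-39007068 (+ strand).
Mptx1: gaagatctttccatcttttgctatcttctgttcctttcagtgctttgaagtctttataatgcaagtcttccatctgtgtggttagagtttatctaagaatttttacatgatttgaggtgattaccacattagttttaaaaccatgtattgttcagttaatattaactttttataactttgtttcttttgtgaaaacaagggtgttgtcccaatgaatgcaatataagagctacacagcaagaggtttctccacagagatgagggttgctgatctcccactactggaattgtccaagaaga
Hoxa9: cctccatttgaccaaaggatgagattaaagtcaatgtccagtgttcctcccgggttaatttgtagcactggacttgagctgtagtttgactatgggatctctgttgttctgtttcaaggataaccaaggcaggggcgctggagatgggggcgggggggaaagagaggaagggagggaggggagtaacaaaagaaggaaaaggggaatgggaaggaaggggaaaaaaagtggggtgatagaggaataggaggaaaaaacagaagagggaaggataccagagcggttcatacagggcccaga
Aqp8: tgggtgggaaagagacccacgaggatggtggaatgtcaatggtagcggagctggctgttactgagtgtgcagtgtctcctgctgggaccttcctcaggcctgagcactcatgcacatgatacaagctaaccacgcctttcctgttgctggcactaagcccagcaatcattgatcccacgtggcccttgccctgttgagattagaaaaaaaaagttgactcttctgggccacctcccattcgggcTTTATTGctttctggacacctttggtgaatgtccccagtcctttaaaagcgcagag
Cyp2c55: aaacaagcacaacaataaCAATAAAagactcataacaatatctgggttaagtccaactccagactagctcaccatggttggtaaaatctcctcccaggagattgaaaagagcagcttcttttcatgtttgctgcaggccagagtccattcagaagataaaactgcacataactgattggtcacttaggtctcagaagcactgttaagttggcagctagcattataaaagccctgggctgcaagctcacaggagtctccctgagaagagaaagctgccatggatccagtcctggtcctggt
The Aqp8 window held the motif as its reverse complement, starting 6 bases before the start, and the Cyp2c55 window held it as written, 232 bases before the start. The Mptx1 and Hoxa9 windows held none, and neither did those of Guca2a and Hsd3b3, which are not printed. A promoter was matched for 86 of the 123 colon-restricted genes, and CAATAAA on either strand occurred in 5 of them (5.81%), those of Glul, Gne, Aqp8, Crisp3 and Cyp2c55. It occurred in 2.92% of the 13384 promoters of tested genes, in 4.84% of all 27025 promoters and in 3 of 102 promoters (2.94%) of the genes lowest in colon tuft. The HNF4 motif CAAAGTCCA occurred in 1 of the 86 (1.16%), that of Hsd3b3, and in 0.471% of promoters of tested genes. A match is a description of the letters in the window and not a binding site.

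Hox genes encode transcription factors that set position along the body axis. Several posterior genes of the HoxA, HoxB and HoxD clusters were higher in colon tuft than in the other tuft tissues. Not all were, since Hoxd9 and Hoxd12 averaged 0.227 and 0.1205 CPM in colon tuft and did not pass the filter. Of 34 Hox genes tested, 20 were higher than in the mean of the other tuft tissues and none was lower (1 was lower with limma voom); 9 were colon-restricted. Their median log2 fold change was 4.59, against -0.01 over all genes, and 3.47 with the 22 genes that were at 0 in every library of some tissue placed at their lower bound of 3 counts. Hoxb9 (chromosome 11, 96271457 to 96276595) was at 54.3, 45.4, 57.7 and 59.7 CPM in colon tuft and at 0 to 2.05 CPM (median 0.0504) in the other tuft libraries. Hoxa9 was at 42.5, 46.8, 30.8 and 41.9 CPM in colon tuft and at 0 to 0.917 CPM (median 0.0739) in the other tuft libraries, and Hoxa13 at 57.5, 59, 42.4 and 32.4 CPM and at 0 to 9.01 CPM (median 0.0376). No colon library overlapped any other tuft library for these genes. All 4 trachea tuft libraries had 0 counts for Hoxb13, Hoxb9, Hoxa9 and Hoxa13. Set against a floor of 3 counts per library, the mean level in colon tuft was 687-fold that floor of trachea tuft for Hoxb13. The same value was 647-fold for Hoxb9, 570-fold for Hoxa13 and 483-fold for Hoxa9. The floor covers counting error only, and not RNA lost before sequencing from the 130 to 453 sorted cells of each trachea library. These folds are therefore not firm lower bounds, and fitted fold changes, which depend on the prior count, are no bound either.

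The Hox genes were not all confined to colon tuft. Against thymus tuft 14 of the 34 were higher in colon tuft and 8 lower, where 7.5% of all genes were higher and 18.1% lower. Against trachea tuft 16 were higher and 4 lower, where 14.3% of all genes were higher and 12.7% lower. The lower counts were thus not far from the shares over all genes. Against gall bladder tuft 23 were higher and none lower, where 9.25% of all genes were higher and 8.98% lower. Hoxc10 was at 0.114, 0.086, 0.0724 and 0.122 CPM in colon tuft and at 22.3, 10.2, 16 and 19.6 CPM in thymus tuft. Hoxa2 was called higher than the mean of the log levels, although its highest level was in trachea tuft and the call was lost without gall bladder tuft, at 11.4, 21.8, 9.14 and 11.1 CPM in colon tuft and 36.3, 110.5, 48.9 and 149 CPM in trachea tuft. Hoxa13 was at 7.49, 9.01, 8.35 and 7.21 CPM in the 4 thymus tuft libraries, above 0.291, 0.0252 and 0.0714 CPM in small intestine tuft. Hoxa3, an anterior member, was at 75.9, 51.8, 75.1 and 63.7 CPM in colon tuft, but its highest mean was 174 CPM in trachea tuft, against 10.6 in small intestine tuft, 3.55 in thymus tuft and 0.209 in gall bladder tuft. Hoxa7 was at 119, 83.9, 98.3 and 66.7 CPM in colon tuft, at 3.92, 17.9, 7.86 and 42.6 CPM in trachea tuft and at 2.04, 0.858 and 0.666 CPM in small intestine tuft. Hoxd13, the most posterior gene of the HoxD cluster, was at 11.1, 13.2, 11.8 and 9.37 CPM in colon tuft and at 0 to 0.178 CPM (median 0) in the other tuft libraries. Hoxa11os, an antisense RNA of Hoxa11, was at 26.3, 23, 29.8 and 16.8 CPM in colon tuft and at 0 to 0.55 CPM (median 0.0494) elsewhere. Hoxa11 itself averaged 0.756 CPM in colon tuft, and reads of this pair may be split between them.

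**Figure D2:**
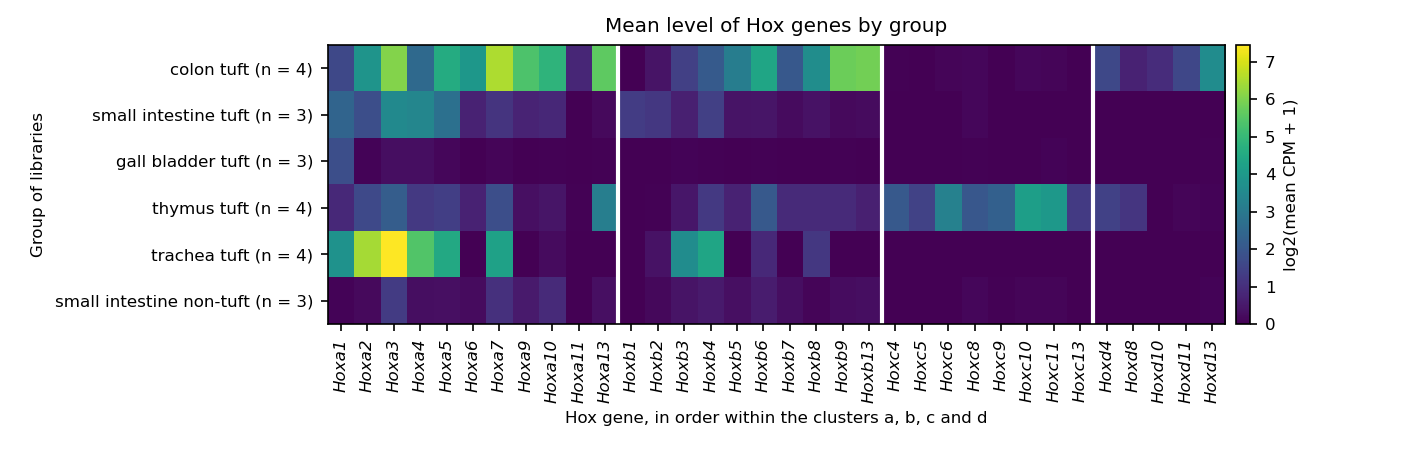
Mean level of each tested Hox gene, as log2(mean CPM + 1) in colour, in the 5 tuft tissues and in small intestine non-tuft cells, ordered along the clusters with colon tuft on top. Several posterior HoxA and HoxB genes are high in colon tuft. Hoxa2 and Hoxa3 are highest in trachea tuft, and HoxC genes such as Hoxc10 are highest in thymus tuft.

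Other regional transcription factors did not all follow the Hox genes. Of 31 gut transcription factors, 20 were higher in colon tuft than in the mean of the others and 2 were lower, with a median log2 fold change of 1.60. Set against small intestine tuft, 4 were higher and 5 lower. Foxd2, a forkhead factor, was at 32.3, 30.1, 37.9 and 30.3 CPM in colon tuft and at 0 to 2.7 CPM (median 0.0366) in the other tuft libraries. It was colon-restricted. Cdx2, an intestinal identity factor, was at 89.4, 122, 36.7 and 73.5 CPM in colon tuft and at 88.4, 39.4 and 43.7 CPM in small intestine tuft, groups that overlapped (log2 fold change between them 0.49, adjusted p = 0.704, edgeR). Gata4, a factor of the upper small intestine, was at 1.91, 1.55, 1.05 and 0.469 CPM in colon tuft and at 171, 132 and 96.2 CPM in small intestine tuft, a log2 difference of -6.74 (adjusted p = 3.09e-05, edgeR). Against the mean of all 4 tissues its log2 fold change was -1.87, and -0.18 without small intestine tuft, where it was not called. Its call was also lost without any 1 of the 4 colon libraries or of the 3 small intestine tuft libraries. Prox1 was the gene of the list called lower than in each other tissue, at 29.5, 34.7, 27.6 and 40.6 CPM in colon tuft against 58.9 to 299 CPM (median 129) in the others.

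Genes of surface colonocytes, the absorptive cells of the colon, were high in the colon tuft libraries. Of 12 colonocyte markers, 11 were higher than in the mean of the other tuft tissues and 8 were colon-restricted, with a median log2 fold change of 5.88. Guca2a (chromosome 4, 119637704 to 119639471), which encodes guanylin, was at 672, 923, 819 and 1012 CPM in colon tuft and at 0 to 19.2 CPM (median 3.73) in the other tuft libraries. Aqp8 (chromosome 7, 123462291 to 123468004) was at 94.8, 75.4, 158 and 142 CPM in colon tuft and at 0 to 28.3 CPM (median 0.659) elsewhere. Cyp2c55 (chromosome 19, 39007019 to 39042693) was at 1599, 857, 927 and 1469 CPM in colon tuft and at 189.5, 148 and 113 CPM in small intestine tuft, the next tissue. These 3 genes did not overlap between colon tuft and any other tuft library. Clca4b, the exception, was at 5.56, 4.49, 4.74 and 1.47 CPM in colon tuft and at 197, 240.3 and 269 CPM in small intestine tuft, where its neighbour Clca4a was at 182, 101, 170.4 and 262 CPM in colon tuft and at 8.25, 19.4 and 15.2 CPM in small intestine tuft.

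The summed level of the 12 colonocyte markers was 20690 to 27670 CPM in colon tuft libraries and 4325 to 6281 CPM in small intestine tuft libraries. It was 12190 to 13140 CPM in small intestine non-tuft libraries, and at most 911 CPM in the gall bladder, thymus and trachea tuft libraries. Most of this sum was Lypd8, a secreted antibacterial protein, at 18560, 16870, 15060 and 20600 CPM in colon tuft. Lypd8 was also at 5006, 3008 and 3067 CPM in small intestine tuft and at 10750, 10280 and 10930 CPM in small intestine non-tuft cells. Colonocytes were not sequenced here, so whether these RNAs lie in tuft cells or in other colon cells within the gate was not tested. In bulk libraries, fewer cells of a type and less RNA per cell cannot be told apart.

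Genes of salt and water transport were mostly higher in colon tuft. Of 30 tested, 18 were higher in colon tuft and 2 lower, with a median log2 fold change of 2.53 (2.41 with genes at 0 in some tissue at their bound), and 9 were colon-restricted. Without colon tuft library 2, 3 or 4, 1 rather than 2 was lower. Slc26a3, the chloride-bicarbonate exchanger of the colon surface, was at 597, 466, 519.9 and 650.4 CPM in colon tuft, against 116, 96.8 and 106 CPM in small intestine tuft. Hsd11b2, which protects the mineralocorticoid receptor from glucocorticoids, was at 77.5, 79.1, 66.8 and 60.7 CPM in colon tuft and at 0 to 3.21 CPM (median 0.726) in the other tuft libraries. Atp12a, the colonic proton-potassium pump, was at 60.4, 31, 53.5 and 71.8 CPM in colon tuft, with 3.75, 1.57, 4.93 and 0.57 CPM in thymus tuft, the next tissue. Nr3c2, the mineralocorticoid receptor itself, averaged 117 CPM in colon tuft, 56.4 in gall bladder tuft and 25.4 in small intestine tuft (log2 fold change against the mean 2.43, SE 0.35, adjusted p = 5.07e-05, edgeR).

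The list also held genes of chloride secretion and amino acid uptake. Slc6a14, an amino acid transporter, was at 174, 139.8, 140 and 213 CPM in colon tuft and at 0.85, 0.177 and 0.19 CPM in small intestine tuft. Slc12a2 and Kcne3, a chloride loader and a potassium channel subunit of secretory cells, averaged 217 and 96 CPM in colon tuft and 61.8 and 13.3 CPM in small intestine tuft, and both were colon-restricted. Aqp4, a basolateral water channel, was at 264, 356, 192 and 196 CPM in colon tuft and averaged 84.6 CPM in trachea tuft and 11.9 CPM in small intestine tuft. Aqp3 was lower, at 0.136, 0.172, 0.0181 and 0.163 CPM in colon tuft against 18.2, 41.1, 18.2 and 16.4 CPM in thymus tuft and 20.5, 73.4, 1.84 and 3.12 CPM in trachea tuft. Of 14 carbonic anhydrases, 6 were higher and 1 was lower, with a median log2 fold change of 2.01 that fell to 0.76 with genes at 0 in some tissue at their bound. The 1 lower was Car7, at 3.84, 4, 1.68 and 11 CPM in colon tuft, against 205, 114 and 112 CPM in small intestine tuft, 128, 143 and 148 CPM in gall bladder tuft and 116, 139.7, 136 and 141 CPM in thymus tuft. Trachea tuft resembled colon tuft in Car7, at 0.571, 11.4, 0.405 and 8.08 CPM.

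Genes of short-chain fatty acid use and ketone synthesis were higher in 13 of 30 cases and lower in none, with a median log2 fold change of 0.94. Slc5a8, a sodium-coupled butyrate transporter, was at 112, 97, 106 and 73.8 CPM in colon tuft, 14.9, 9.91, 12.1 and 10.5 CPM in thymus tuft and 38, 27.4, 4.99 and 4.77 CPM in trachea tuft. It was at 0.581, 0.151 and 0.643 CPM in small intestine tuft and at 0.425, 0.376 and 0.602 CPM in small intestine non-tuft cells. Against small intestine tuft alone, 5 of the 30 were higher and the median log2 difference was 0.14, where 4.46% of all genes were higher.

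Enzymes of steroid and foreign-compound metabolism moved both ways. Of 47 tested, 24 were higher in colon tuft than in the mean of the other tissues and 7 lower, with a median log2 fold change of 1.65, and 4 were colon-restricted. Tat, tyrosine aminotransferase (chromosome 8, 109990437 to 109999803), was at 78.4, 26.9, 70.2 and 50.6 CPM in colon tuft and at 0 to 0.626 CPM (median 0.112) in the other tuft libraries. Cyp2d34, a cytochrome P450, was at 58.1, 80, 90.9 and 121 CPM in colon tuft and at 0 to 2.2 CPM (median 0.158) elsewhere. Against small intestine tuft the list turned, with 8 higher and 14 lower and a median of -1.03. Cyp3a11 was at 3.36, 1.91, 1.48 and 0.469 CPM in colon tuft and at 407, 272 and 371 CPM in small intestine tuft. Cyp2b10 was at 1.32, 1.07, 1.1 and 0.0204 CPM in colon tuft and at 214, 287 and 258 CPM in small intestine tuft. Without small intestine tuft in the mean, 3 rather than 7 members were lower. Outside the list, Hao2, a peroxisomal hydroxyacid oxidase, was at 78.5, 88.1, 66.8 and 75.1 CPM in colon tuft and at 0 to 2.9 CPM (median 0.199) in the others. Hsd3b2, of the steroid dehydrogenase family, was at 34.8, 25.9, 21.1 and 24.5 CPM in colon tuft and at 2.68, 1.56 and 1.38 CPM in small intestine tuft.

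Mucin and glycan genes were mostly higher in colon tuft than in the mean of the other tissues. Of 31 genes of mucin glycosylation and sulfation, 20 were higher and 1 lower, with a median log2 fold change of 1.78. In the comparison with small intestine tuft 7 were higher and 5 lower, with a median of 1.04, and the summed levels overlapped, at 4492 to 5056 CPM in colon tuft and 4386 to 4957 CPM in small intestine tuft. The genes named next were among those with higher levels in colon tuft than in small intestine tuft. B3gnt7, which extends keratan-type chains, was at 268, 271, 319 and 187 CPM in colon tuft, against 35.4, 49.3 and 39.3 CPM in small intestine tuft and 99.3, 118 and 113 CPM in small intestine non-tuft cells. Gcnt3, which makes mucin branches, was at 161, 116, 138 and 163 CPM in colon tuft, 12.6, 14.9 and 11.1 CPM in small intestine tuft and 265, 271 and 265 CPM in small intestine non-tuft cells. B3gnt7 was thus above the non-tuft level in every colon tuft library and Gcnt3 below it. St6galnac6, a sialyltransferase, averaged 441 CPM in colon tuft, 128 in small intestine tuft and 4.28 in non-tuft cells. Mgat4c, an N-glycan branching enzyme outside the list, was at 72.7, 45.4, 40.2 and 51.2 CPM in colon tuft and at 0 to 2.66 CPM (median 0.109) in the other tuft libraries, and was no longer restricted without small intestine tuft library 3.

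Goblet cell markers were higher in part. Of 12, 6 were higher in colon tuft and none lower, with a median log2 fold change of 2.18. Muc2, the gel-forming mucin, was at 6922, 4363, 4351 and 5223 CPM in colon tuft and at 2.56 to 764 CPM (median 125) in the other tuft libraries, with 29120, 31440 and 32110 CPM in small intestine non-tuft cells (log2 fold change against the mean 5.18, SE 0.64, adjusted p = 7.47e-06, edgeR). The summed goblet level was 6936 to 9584 CPM in colon tuft, 2244 to 2698 CPM in small intestine tuft and 107000 to 116800 CPM in the non-tuft libraries. Agr2, a mucin-folding disulfide isomerase, was the 1 colon-restricted goblet marker, at 1080, 1036, 962 and 999 CPM in colon tuft against 406, 204, 212 and 149 CPM in trachea tuft, the next tissue. Of the 12 markers, 11 had a log2 fold change above 0 against the mean and 9 against small intestine tuft. Not all differed from small intestine tuft as Muc2 did. Clca1 and Fcgbp averaged 429 and 243 CPM in colon tuft, 284 and 499.9 CPM in small intestine tuft, and 10700 and 23570 CPM in non-tuft cells. The part of other cells within the gate in the mucin results was not tested.

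Defence genes were more often higher than lower. Of 32 epithelial defence genes tested, 16 were higher in colon tuft and 4 lower, with a median log2 fold change of 1.83 (1.63 with genes at 0 in some tissue at their bound). Mptx1 (ENSMUSG00000026531; chromosome 1, 174330518 to 174332873), whose promoter is shown above, was at 75.5, 172, 139.8 and 188 CPM in colon tuft and at 0 to 1.57 CPM (median 0.378) in the other tuft libraries. Its log2 fold change was 8.55 against the mean (SE 0.61, adjusted p = 8.53e-09, edgeR) and 7.20 against the nearest tissue, the largest such value among the colon-restricted genes with at least 20 CPM in colon tuft. Small intestine non-tuft cells had 4.69, 4.41 and 2.98 CPM.

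Saa1, an acute-phase apolipoprotein made by gut epithelium, was at 175, 145, 170.4 and 228 CPM in colon tuft, 9.8, 17.9, 22.6 and 23 CPM in thymus tuft and at most 1.02 CPM in every small intestine, gall bladder and trachea tuft library. Nox1, the superoxide-producing oxidase of the colon, was at 44.9, 34.9, 58.4 and 34.2 CPM in colon tuft and at 3.48, 5.81, 7.14 and 3.03 CPM in thymus tuft. Duox2, a hydrogen peroxide producer, was as high in gall bladder tuft, at 368, 242, 414 and 319.5 CPM in colon tuft and 404, 115 and 471 CPM in gall bladder tuft. Ltf, lactoferrin, was called lower than in each other tissue, at 0.341, 0.043, 0.344 and 0.224 CPM in colon tuft and at 5 to 1294 CPM (median 15.2) in the others. Tgm3, a transglutaminase, was at 1107, 1020, 1069 and 1207 CPM in colon tuft and 80.4, 35.7, 68.7 and 25.5 CPM in thymus tuft, and at most 5.1 CPM in every other tuft library. Sycn, syncollin, a secretory granule protein, was at 346, 636, 424 and 443 CPM in colon tuft and at 0 to 13.5 CPM (median 1.45) in the others.

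Of 10 gasdermins, pore-forming proteins of cell death and secretion, 6 were higher in colon tuft and none lower. Gsdmc2, Gsdmc3, Gsdmcl2 and Gsdmc4, neighbours on chromosome 15, were colon-restricted. Gsdmc4 was at 219.5, 405, 197 and 238 CPM in colon tuft and at 0 to 8.25 CPM (median 2.08) in the other tuft libraries. Gsdmc2 was at 96, 178, 93.7 and 91.2 CPM in colon tuft and at 0 to 6.69 CPM (median 0.646) elsewhere, and Gsdmcl2 at 16.6, 28.4, 25.3 and 19.5 CPM in colon tuft and at 0 to 0.228 CPM (median 0.0203) elsewhere. Colon library 2 was the highest for all 3 genes. Because the copies are near-identical, their separate levels are uncertain.

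**Figure D3:**
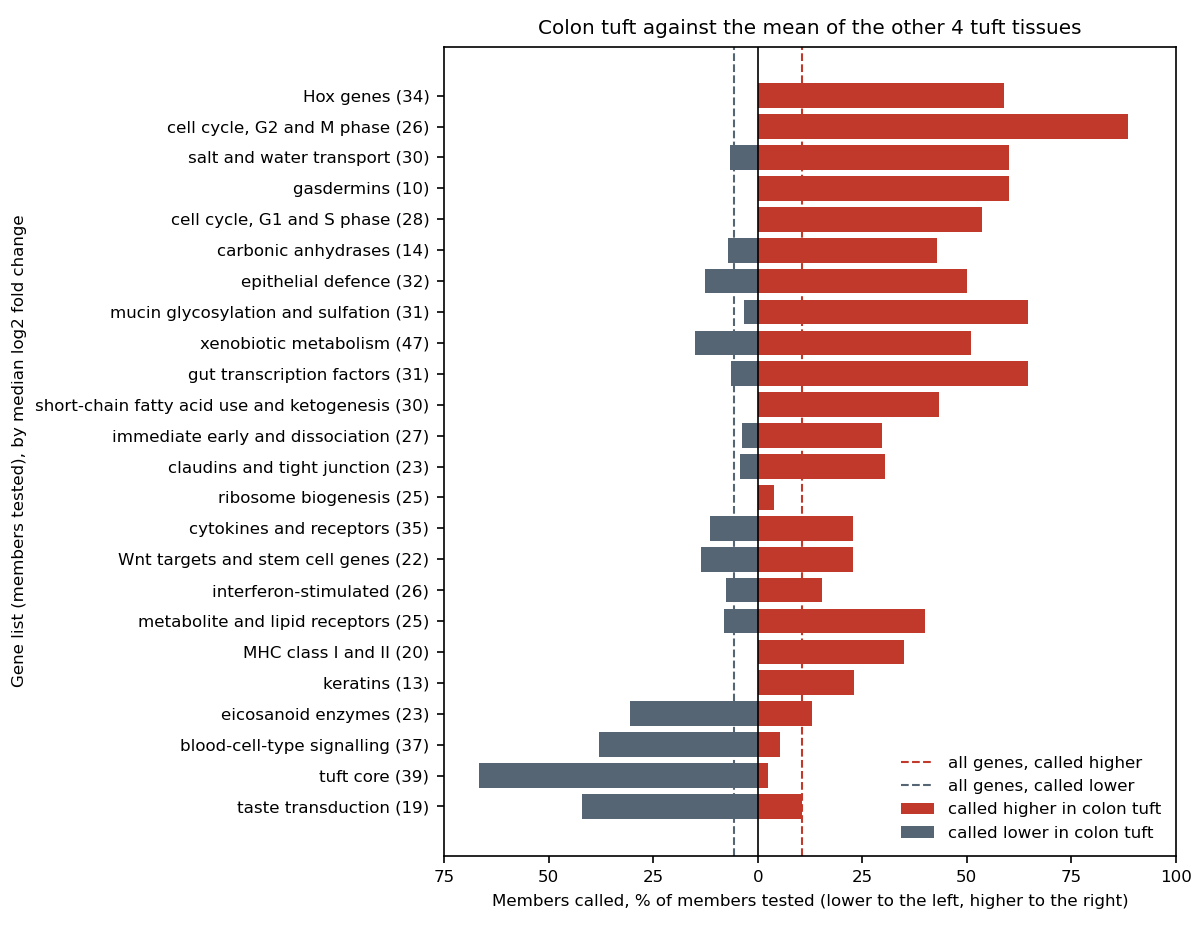
Share of the tested members of each function list that were called higher (bars to the right) or lower (bars to the left) in colon tuft than in the mean of the other tuft tissues, in percent, ordered by the list's median log2 fold change. Dashed lines mark the shares over all genes, 10.7% higher and 5.78% lower, and the G2 and M phase list and the tuft core list have the longest bars on either side.

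Mitotic genes were higher in colon tuft than in gall bladder, thymus and trachea tuft. Of 26 genes of the G2 and M phases, 23 were higher than in the mean of the other tissues and none lower, with a median log2 fold change of 4.56. By tissue, 21 were higher than in gall bladder tuft, 19 than in thymus tuft and 21 than in trachea tuft. None was colon-restricted. Against small intestine tuft the median was 1.08 and edgeR called none of the 26 in either direction, with 1 higher at an unadjusted p under 0.05. DESeq2 called none and limma voom called 14 higher. Mki67, a proliferation marker, was at 688, 720, 653 and 454 CPM in colon tuft. It was at 277, 219.6 and 158 CPM in small intestine tuft, 0.794, 9.57 and 14.4 CPM in gall bladder tuft, 48.5, 23.6, 23.4 and 24.2 CPM in thymus tuft and 22.5, 1.02, 1.44 and 0.0384 CPM in trachea tuft. Colon tuft libraries lay above all others, with small intestine tuft next. All 26 genes averaged lower in colon tuft than in small intestine non-tuft cells, where Mki67 was at 773, 717 and 918 CPM. The summed level of the list was 1324 to 1919 CPM in colon tuft, 619 to 911 CPM in small intestine tuft and 2702 to 3612 CPM in non-tuft cells. Of 28 genes of the G1 and S phases, 15 were higher, a count that was 9 without colon tuft library 3 or 4 and 24 with limma voom. Whether dividing cells of another type in the gate take part was not tested.

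Tuft cell genes were mostly lower in colon tuft libraries than in those of the other tissues. Of 39 tuft core genes, 26 were lower than in the mean of the others and 1 was higher, with a median log2 fold change of -1.48, and 8 were lower than in each other tissue. The summed level was 10210 to 13360 CPM in colon tuft. It was 43120 to 55130 CPM in small intestine tuft, 39980 to 44650 CPM in gall bladder tuft, 15630 to 17770 CPM in thymus tuft and 24780 to 45170 CPM in trachea tuft, with 739 to 988 CPM in non-tuft cells. No colon library reached the lowest library of another tuft tissue, and all 4 lay above the non-tuft libraries. By tissue, 31 of the 39 genes were lower than in gall bladder tuft, 25 than in trachea tuft and 13 than in thymus tuft, where the median was -0.55. In these bulk libraries, a smaller share of tuft cell RNA in the colon gate and less RNA per tuft cell cannot be told apart. The same limit holds for the single tuft, taste and eicosanoid genes below, and the part of other cells was not tested.

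Pou2f3 was at 188, 207, 170.2 and 170.1 CPM in colon tuft and at 265 to 1380 CPM (median 542) in the other tuft libraries, with no overlap (log2 fold change -1.70, SE 0.20, adjusted p = 3.41e-06, edgeR). Spib, an ETS factor shared with lymphoid cells, was at 164, 247, 129 and 211 CPM in colon tuft and at 795 to 1753 CPM (median 1192) in the others (log2 fold change -2.68, SE 0.22, adjusted p = 5.20e-08, edgeR). Trpm5, the taste cation channel, was at 1125, 1051, 1031 and 1496 CPM in colon tuft, 1072, 1284, 1229 and 1284 CPM in thymus tuft and 5467, 4954 and 4069 CPM in small intestine tuft, so that colon and thymus overlapped. Dclk1, a kinase widely used as a tuft marker, was at 792, 889, 759 and 1063 CPM in colon tuft and 991, 983, 933 and 1292 CPM in thymus tuft. Il25, whose reporter chose the cells, was at 8.33, 3.48, 14.6 and 10.7 CPM in colon tuft and at 8.11 to 62.4 CPM (median 24.6) in the others (adjusted p = 0.0985, edgeR). The Il25 adjusted p was 0.0224 with DESeq2 and 0.0483 with limma voom.

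Tuft core genes differed in size and direction. Bmx, a cytoplasmic tyrosine kinase, was at 56.7, 78.5, 73.2 and 80.6 CPM in colon tuft and at 436 to 1178 CPM (median 508) in the others (log2 fold change -2.97). Avil, advillin, was at 327, 413, 295 and 386 CPM in colon tuft, against 758, 739.5, 915 and 679 CPM in trachea tuft and 2967, 2410 and 2135 CPM in small intestine tuft. Rgs13, which shuts off G proteins, was at 82.6, 110, 76 and 77.7 CPM in colon tuft and at 200.5 to 1539 CPM (median 509) in the others. Matk, a kinase that restrains SRC-family kinases, was the 1 tuft core gene called higher than the mean of the others, at 514, 588, 794 and 965 CPM in colon tuft. It was at 1839, 2395 and 2180 CPM in small intestine tuft and at most 175 CPM in every gall bladder, thymus and trachea tuft library. Against small intestine tuft, 29 of the 39 were lower.

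**Figure D4:**
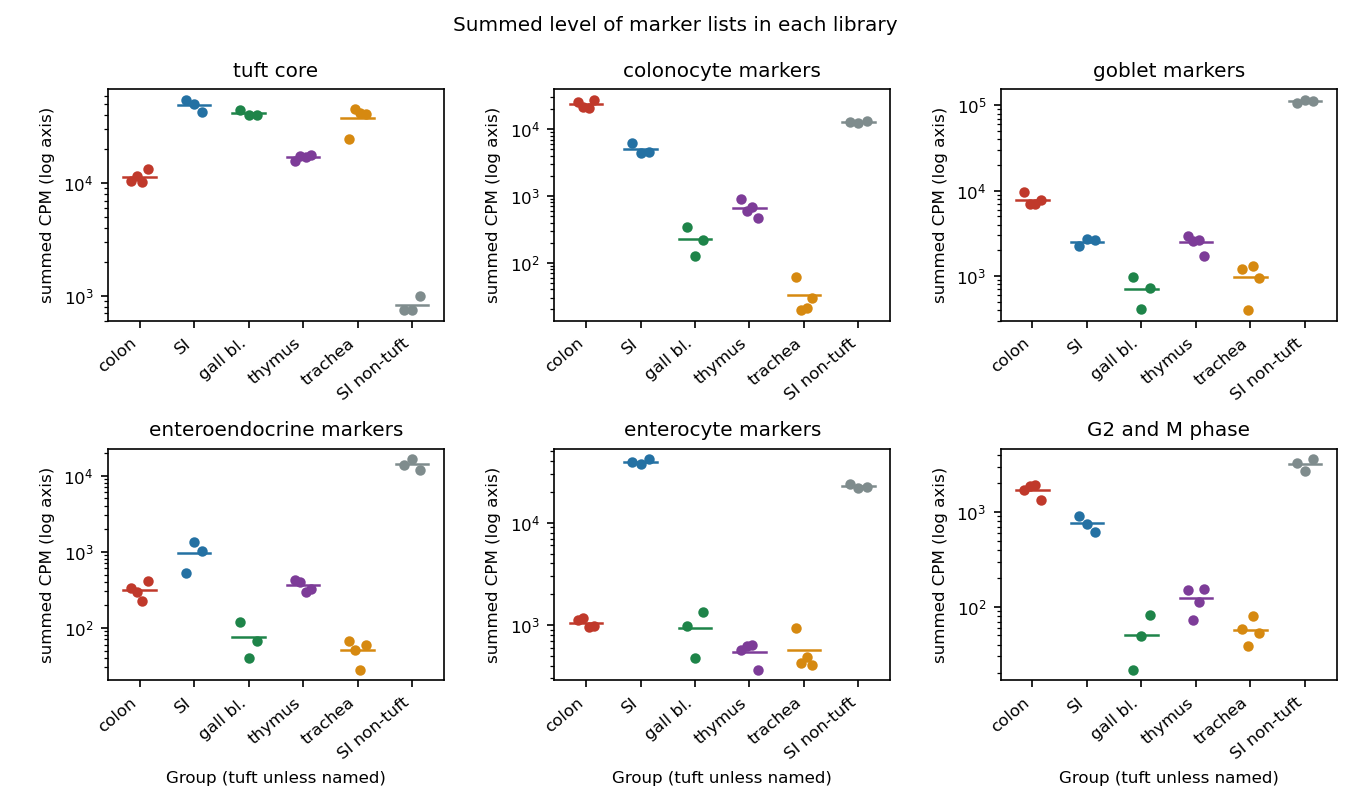
Summed level per library (points; CPM on a log axis) and group mean (bars) of tuft core genes, 4 marker lists of other cell types and G2 and M phase genes, with colon tuft first. Colon tuft libraries have 10210 to 13360 CPM of tuft core genes, below all other tuft libraries. Their summed level of colonocyte markers, most of it Lypd8, is above that of any other group.

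Taste transduction genes were more often lower than higher in colon tuft. Of 19 tested, 2 were higher and 8 lower in colon tuft, with a median log2 fold change of -1.74, while 1 was higher without colon tuft library 3 or 4 and 5 were lower without thymus tuft in the mean. Gnat3, gustducin, was at 65.5, 109, 92.5 and 106 CPM in colon tuft, 55.4, 33.8 and 17.9 CPM in small intestine tuft and 16.6, 5.33 and 27 CPM in gall bladder tuft. It was at 498, 699, 478 and 811 CPM in thymus tuft and 2589, 6609, 5648 and 7090 CPM in trachea tuft, so colon tuft lay between these groups. Its log2 fold change of -1.18 against the mean turned to 0.40, with no call, without trachea tuft. Gng13, a G protein gamma subunit of taste cells, was at 0.341, 0.58, 2.23 and 1.24 CPM in colon tuft, 2.95, 2.85 and 2.4 CPM in small intestine tuft and 167, 87 and 110.1 CPM in gall bladder tuft. Tas1r3, a sweet and umami receptor subunit, was at 1.52, 10.4, 5.74 and 5.09 CPM in colon tuft and 11.9, 5.83 and 4.33 CPM in small intestine tuft, and averaged 448 CPM in trachea tuft.

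Receptors for metabolites and lipids were more often called higher than lower against the mean. Of 25 tested, 10 were higher and 2 lower, where 10.7% of all genes were higher and 5.78% lower. The median log2 fold change was 0.28. The lower count was 4 with DESeq2 and 5 with limma voom. With small intestine tuft alone as the comparison, 3 were higher and 5 lower, and the summed level was 734 to 1068 CPM in colon tuft and 1337 to 1572 CPM in small intestine tuft. Gprc5a, an orphan receptor, was colon-restricted, at 305, 278, 290.1 and 365 CPM in colon tuft and at 2.67 to 122 CPM (median 17.4) in the others. Its relative Gprc5c went the other way, at 11.3, 15.2, 7.22 and 8.31 CPM in colon tuft, against 622, 637 and 519.6 CPM in small intestine tuft and 24.2, 42.8, 61.6 and 30.9 CPM in thymus tuft. Casr, the calcium-sensing receptor, was at 0.341, 0.215, 0.235 and 0.387 CPM in colon tuft, 2.17, 3.81 and 3.57 CPM in small intestine tuft and 80.9, 282 and 71.2 CPM in gall bladder tuft. Both were called lower than in each other tissue. Ffar3, a receptor for short-chain fatty acids, was at 109, 138, 118 and 260.5 CPM in colon tuft, below 611, 681 and 583 CPM in small intestine tuft and above 2.1, 7.2, 7.15 and 13.9 CPM in thymus tuft. It was called higher than the mean of the log levels, but its mean CPM in colon tuft was below the plain mean of the others, and it was not called without thymus or trachea tuft. Sucnr1, the succinate receptor, was at 1.2, 2.92, 1.18 and 5.44 CPM in colon tuft, 23.5, 19.9 and 28.1 CPM in small intestine tuft and 38.8, 70.1, 58.6 and 103 CPM in trachea tuft. It was lower than in small intestine tuft (log2 fold change -3.15, adjusted p = 0.00671, edgeR), while the comparison with the mean gave an adjusted p of 0.0914.

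Enzymes of leukotriene and prostaglandin synthesis were more often lower than higher. Of 23 eicosanoid genes, 7 were lower and 3 higher, with a median log2 fold change of -0.88 (-1.07 with genes at 0 in some tissue at their bound), and 1 rather than 3 was higher without trachea tuft in the mean. Alox5ap, which presents arachidonic acid to 5-lipoxygenase, was at 65.2, 129.7, 91.8 and 109.5 CPM in colon tuft and at 236 to 1365 CPM (median 553) in the others. Ptgs1, cyclooxygenase 1, was at 158, 199, 193 and 224 CPM in colon tuft and at 421 to 981 CPM (median 694) in the others. Ltc4s, leukotriene C4 synthase, was at 10.5, 18, 20.1 and 27.2 CPM in colon tuft, 15.6, 30, 33.4 and 30.9 CPM in thymus tuft and 133, 121 and 144 CPM in small intestine tuft. The exception was Pla2g10, a secreted phospholipase, which was colon-restricted at 5.47, 20.1, 14.2 and 26.3 CPM in colon tuft and at 0 to 0.356 CPM (median 0.0641) in the others, with 16.1, 14.2 and 12.1 CPM in small intestine non-tuft cells.

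Of 37 genes of blood-cell-type signalling, 14 were lower and 2 higher, with a median log2 fold change of -1.22; many are also tuft core genes. Pik3r5, a regulatory subunit of a phosphoinositide kinase, was at 1028, 941, 765 and 975 CPM in colon tuft and at 1841 to 9072 CPM (median 3465) in the others. Of 35 cytokine and cytokine receptor genes, 8 were higher and 4 lower, where 10.7% of all genes were higher and 5.78% lower. The lower count was 8 with DESeq2 or limma voom. Of these 35, 2 were higher and 4 lower than in small intestine tuft. Areg, an EGF-family growth factor, was colon-restricted, at 227, 202, 261 and 233 CPM in colon tuft, 29.5, 28.6 and 30 CPM in small intestine tuft and 91.8, 103 and 95 CPM in small intestine non-tuft cells. Il4ra, the shared receptor chain for IL-4 and IL-13, was at 69.8, 39.8, 54 and 64.2 CPM in colon tuft and at 82 to 440 CPM (median 212) in the others.

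The genes lowest in colon tuft included several that were near 0 there. Slc4a8, a sodium-driven bicarbonate exchanger, was at 9.76, 9.26, 10.8 and 9.11 CPM in colon tuft and at 91 to 446 CPM (median 166) in the others (log2 fold change -4.20, SE 0.31, adjusted p = 1.07e-08, edgeR). Fam234b was at 0.976, 1.33, 0.814 and 1.43 CPM in colon tuft and at 11.6 to 176 CPM (median 80.1) in the others, and small intestine non-tuft cells had 55.8, 51.5 and 61.5 CPM. Chst2, a carbohydrate sulfotransferase, was at 0.25, 0.322, 0.452 and 1.12 CPM in colon tuft and at 9.17 to 162 CPM (median 23.3) in the others. Basp1, Parp8 and Kndc1 were at no more than 3.97 CPM in any colon tuft library and at no less than 7.54 CPM in any other tuft library. Their log2 fold changes were -5.09, -5.53 and -6.13. Slc43a2, an amino acid transporter, was at 22, 10.5, 10.8 and 20.6 CPM in colon tuft, and its lowest other library was a gall bladder library at 27 CPM. Ablim3, an actin-binding protein, was at 2.84, 1.38, 1.65 and 2.53 CPM in colon tuft and at 12.6 to 74.7 CPM (median 36.1) in the others.

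**Figure D5:**
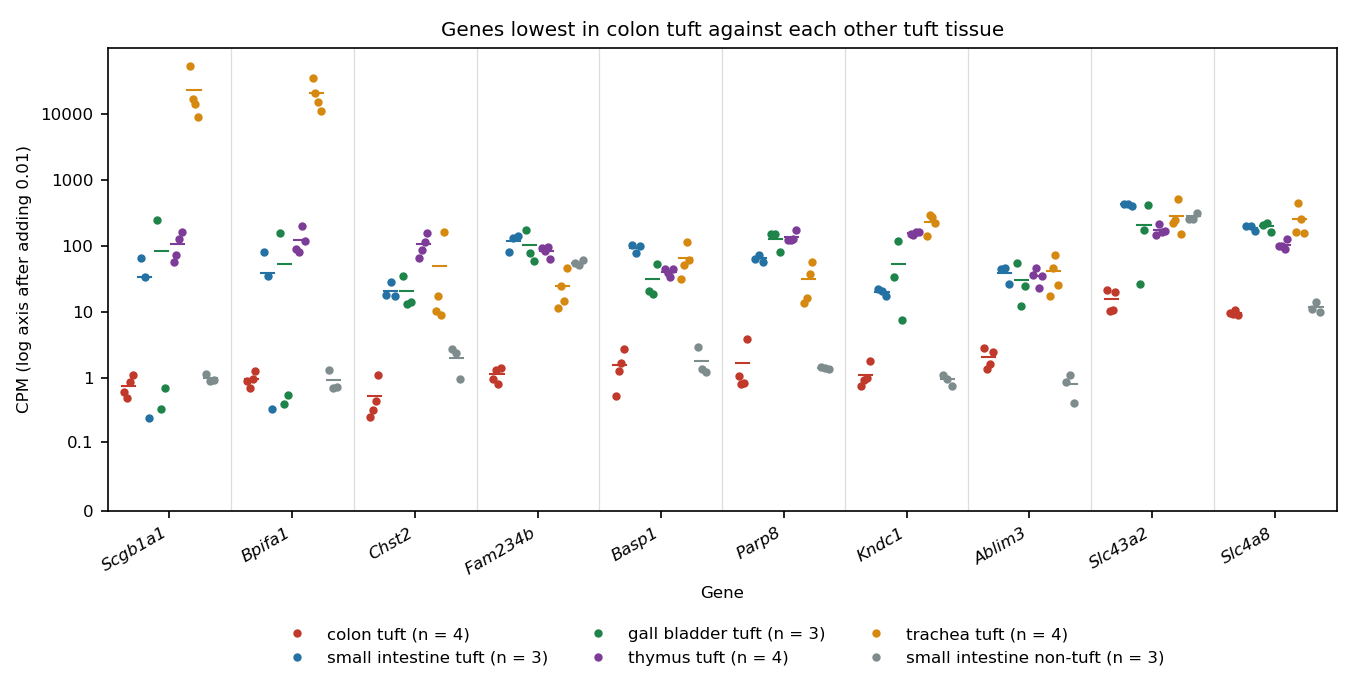
Level in each library (points; CPM on a log axis after adding 0.01) and group mean (bars) of the 10 genes of the naming rule called lower in colon tuft than in each other tuft tissue. Colon tuft libraries lie below all other tuft libraries except for Scgb1a1 and Bpifa1, for which some small intestine and gall bladder libraries are as low.

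Scgb1a1 and Bpifa1, secreted airway proteins, headed this list but differed from the rest. Scgb1a1 was at 0.613, 0.494, 0.869 and 1.1 CPM in colon tuft and at 53210, 16830, 14210 and 8966 CPM in trachea tuft. It was at 67.1, 34.4 and 0.238 CPM in small intestine tuft and at 252, 0.329 and 0.695 CPM in gall bladder tuft, so single libraries of these groups were high and others as low as the colon. It was at 57.9, 74.7, 129.5 and 163 CPM in thymus tuft. Bpifa1 was at 0.908, 0.709, 0.977 and 1.3 CPM in colon tuft and at 82.4, 35.4 and 0.333 CPM in small intestine tuft, high in the same libraries. Of 12 airway markers, 9 were lower in colon tuft and none higher, and 4 were lower with limma voom. Their summed level was 17.1 to 18.9 CPM in colon tuft, 2.5 to 217 CPM in small intestine tuft, 114 to 732 CPM in gall bladder tuft, 1003 to 1794 CPM in thymus tuft and 34530 to 130600 CPM in trachea tuft. The part of airway RNA in the low calls of these genes was not tested.

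Enterocyte markers were more often lower than higher in colon tuft. Of 23 enterocyte markers, genes of absorptive cells of the small intestine, 11 were lower and 5 higher than in the mean of the others, with a median log2 fold change of -1.72. Without small intestine tuft in the mean 4 were lower, and without colon tuft library 2, 3 or 4 the count was 7, 7 or 6. Without colon tuft library 1, 3 rather than 5 were higher. Against small intestine tuft 19 were lower and none higher with edgeR (2 higher at an unadjusted p under 0.05 and 2 with each of DESeq2 and limma voom), with a median of -6.56. Apoa1, a lipoprotein, was at 33, 28.7, 31.6 and 6.58 CPM in colon tuft and 3967, 7231 and 8509 CPM in small intestine tuft, where non-tuft cells had 4366, 3562 and 3581 CPM. The summed enterocyte level was 954 to 1175 CPM in colon tuft, 37770 to 41970 CPM in small intestine tuft and 21990 to 23810 CPM in non-tuft cells. The summed level of these markers was thus higher in small intestine tuft libraries than in the non-tuft libraries. Whether that RNA lies in tuft cells or in other cells within the gate was not tested. Its part in the comparison with small intestine tuft was not tested either.

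Of 23 enteroendocrine markers, 5 were higher and 1 lower, where 10.7% of all genes were higher and 5.78% lower. With a filter at 5 CPM, 3 of the markers were higher. The lower call was lost without colon tuft library 1 or 3. Compared with small intestine tuft, 1 was higher and 3 lower. The hormone genes Gcg, Pyy and Insl5, of the distal gut, were among those higher. Gcg was at 104, 97.7, 56 and 192 CPM in colon tuft, 12.8, 52.7 and 12.8 CPM in small intestine tuft and 367, 439 and 383 CPM in non-tuft cells. Insl5 was at 3.7, 2.28, 10 and 18.9 CPM in colon tuft, at no more than 1.14 CPM in any other tuft library and at 0.0139 CPM on average in small intestine non-tuft cells. The summed enteroendocrine level was 227 to 416 CPM in colon tuft, 529.8 to 1347 CPM in small intestine tuft and 11720 to 16510 CPM in non-tuft cells. Of 10 biliary markers 6 were lower, and 2 without gall bladder tuft in the mean. With edgeR none of 5 pan-epithelial, 9 T cell or 3 glial markers was called. At an unadjusted p under 0.05, 3 pan-epithelial markers were higher, and 1 T cell and 1 glial marker were lower and were also called by DESeq2 and limma voom. Of 10 myeloid markers 1 was lower with edgeR and 3 with each of DESeq2 and limma voom.

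Small intestine tuft was, by correlation, the tuft group most like colon tuft (mean 0.896) and was released in the same way. The small intestine non-tuft libraries correlated with colon tuft slightly more, at 0.903. Of 27 immediate early and dissociation genes, which respond fast to stress, 13 were higher than in small intestine tuft and none lower, with a median of 1.37, where 4.46% of all genes were higher. Atf3, a stress-responsive factor, was at 1107, 1143, 838 and 843 CPM in colon tuft and 169, 73.5 and 94.6 CPM in small intestine tuft, with 523, 904 and 1100 CPM in gall bladder tuft and 459.8, 521 and 629 CPM in non-tuft cells. Fos was at 1331, 1290, 1165 and 1246 CPM in colon tuft and 327, 294 and 304 CPM in small intestine tuft. Against the mean of all 4 tissues, 8 of the 27 were higher and 1 lower. Of 25 ribosome biogenesis genes 1 was higher against the mean and 2 against small intestine tuft, where 10.7% and 4.46% of all genes were higher. In the small intestine comparison 24 of the 25 had a log2 difference above 0, with a median of 0.74, and the summed level was 1301 to 1525 CPM in colon tuft and 755 to 808 CPM in small intestine tuft.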

How the data were processed

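Per the labels' protocols, poly(A) RNA of sorted cells was amplified (NuGEN Ovation V2) before Nextera XT library construction. No molecular identifiers were used, so floors cover counting error only. The authors deposited 1 table of unnormalized whole counts for each library. Per the submitters' processing notes the tools were STAR and DESeq2 and the build GRCm38, with no versions. The annotation used for counting and its use of strand are not given in those notes. Of 43432 identifiers in each file, 42548 matched GENCODE M21, from which symbols and coordinates were taken.

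After the filterByExpr filter, counts were TMM-scaled and fitted over the 18 tuft libraries with edgeR 4.0.16 (glmQLFit, legacy = TRUE) in R 4.3.3, two-sided, with Benjamini-Hochberg adjustment over 19850 genes. Tables used pandas 2.3.3 and figures matplotlib 3.10.9, under Python 3.11.15. The fit was tested on simulated data, where it missed many changed genes, so a gene that was not called is not shown to be unchanged. Standard errors are approximate. No replicate pair agreed within sampling noise, so each library counts as 1 sample, from 1 mouse or pool. Promoters are from RefSeq (GRCm38.p6).

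Genes with values were named by rule: the 12 colon-restricted genes of at least 20 CPM in colon tuft by their smallest fold change, 10 lowest genes of at least 20 CPM in each other tissue, 5 further genes each way with no overlap, list members, and 10 genes always given. The ranks excluded antigen receptor segments, predicted genes, Y-linked genes and Xist. The colon comparison, the 24 lists of functions and the 17 of markers were chosen with earlier results of these data known. Whether replicate numbers in the titles pair libraries across tissues was not settled. The deviations of 14 same-number pairs correlated at -0.0871 to 0.149, and 1 was over 0.1. Those of 42 other pairs correlated at -0.151 to 0.0966. Same-number pairs of colon and small intestine tuft were at 0.149, 0.0843 and 0.0979 for numbers 2, 3 and 4. Correlations this small cannot show whether libraries share a mouse, and the main fit used no replicate block. Alternatives were other scaling, filters, DESeq2 1.42.0, limma 3.58.1 voom, a replicate block, a pooled mean, and leaving out each tissue or library. Some results are not reported here.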

Additional observations from a re-analysis of the deposited data

Results flagged for a closer look

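A library was singled out where, within a tissue of 4 libraries and a mean of at least 1 CPM, its gap to the nearest other library was a larger part of the group's whole range than Dixon's critical value allows. This held for 22 of 282 sets of a named gene and a tissue, and chance alone gives about 1 in 20.

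In colon tuft, Gsdmc2 was at 177.5 CPM in library 2 (others up to 95.99), Cd74 at 516.5 CPM in library 2 (others up to 201.4) and Parp8 at 3.974 CPM in library 4 (others up to 1.067). Apoa1 was low in colon library 4, at 6.582 CPM, with the others at 28.74 or more.

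Thymus tuft library 2 was high for Hao2 (2.905 CPM), Aqp3 (41.08 CPM), Gsdmc2 (6.692 CPM), Gsdmc4 (6.221 CPM) and Tas1r3 (177.9 CPM). Thymus library 1 was high for Mki67 (48.48 CPM) and Kcne3 (3.431 CPM). Thymus library 3 was high for Aqp8 (3.052 CPM) and low for Ptgs1 (421.0 CPM), and thymus library 4 was high for Parp8 (175.7 CPM) and Dclk1 (1292 CPM).

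Trachea tuft library 1 was high for Mki67 (22.52 CPM), Lypd8 (31.28 CPM), Axin2 (19.56 CPM) and Cldn2 (25.87 CPM), library 3 for Cyp3a11 (1.684 CPM), and library 4 for Chst2 (162.3 CPM) and Gsdmc4 (3.999 CPM). Without colon library 2, Cd74 was not called against the mean of the other tissues, at a log2 fold change of 1.85 rather than 2.48.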

How the results depend on the processing

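Genes lower than the mean of the others numbered 1895 with DESeq2 and 1782 with limma voom, against 1148. Colon-restricted genes numbered 198 with DESeq2 and 456 with voom, against 123, and genes lowest in colon tuft numbered 205 with DESeq2, against 135. Without 1 library, colon-restricted genes numbered 70 to 157 and genes lowest in colon tuft 88 to 145; the lowest values came without a small intestine tuft library, which leaves 2 in that group. Genes higher than the mean numbered 1696 to 2309 and lower 815 to 1229 in these refits. With a replicate block, although pairing by number was not settled, 1917 were higher and 1025 lower, and 117 and 112 in each-tissue calls. The other scalings, the filters and the pooled mean kept these 4 counts within 1.5 times. Leaving out a tissue kept the 2 counts against the mean within 1.5 times. Calls against each tissue then need only 3 tissues, and numbered 380 higher and 457 lower without small intestine tuft, 228 and 206 without gall bladder tuft, 167 and 169 without thymus tuft, and 292 and 245 without trachea tuft. Of 118 named genes, 96 kept their direction and call in all 30 alternatives and 22 crossed the threshold in at least 1. Gnat3 changed sign without trachea tuft, at 0.40, where the mean no longer holds the tissue with the most Gnat3. The cause of the other changes was not tested. The restricted call of Mgat4c was lost without small intestine tuft library 3, and the lowest calls of Scgb1a1 and Bpifa1 in 10 and 9 of 30 alternatives. Depth limits genes near 3 counts per library, 0.0547 to 0.0870 CPM. The spread between replicates was widest in gall bladder and trachea tuft, and its effect on the calls there was not tested.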

Other observations

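Some gene groups not described above moved in part, where 10.7% of all genes were higher and 5.78% lower. Of 22 Wnt target and stem cell genes, 5 were higher in colon tuft than in the mean of the other tuft tissues and 3 lower, and the higher count was 9 with limma voom and 8 without trachea tuft. Without colon tuft library 3 or 4, 1 rather than 3 was lower. Smoc2, a matricellular protein of crypt base cells, was at 43, 48.2, 33.5 and 23.5 CPM in colon tuft and at 16.7, 18.4 and 16 CPM in small intestine tuft, with 76.1, 58.9 and 71.4 CPM in small intestine non-tuft cells. Olfm4, a marker of small intestinal crypt cells, was at 4.2, 2.15, 2.06 and 0.469 CPM in colon tuft and at 55, 96.3 and 93.7 CPM in small intestine tuft, with 648, 518 and 722 CPM in non-tuft cells. Its call against the mean was lost in 8 of 30 alternatives. Of 23 claudin and tight junction genes 7 were higher and 1 lower (4 higher without thymus tuft), and the lower call was lost without any 1 colon tuft library. Cldn23, a claudin, was colon-restricted, at 164, 125, 153 and 238 CPM in colon tuft and at 2.28 to 95.9 CPM (median 18.7) in the other tuft libraries. Cldn2, a pore-forming claudin, was at 403, 281, 303 and 241 CPM in colon tuft and at 728, 465 and 408 CPM in gall bladder tuft. Of 13 keratins 3 were higher and none lower with edgeR, with 2 lower at an unadjusted p under 0.05 and 1 lower with each of DESeq2 and limma voom.

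Calls of antigen presentation genes depended on the tissues in the mean. Of 20 MHC genes, 7 were higher and none lower with edgeR, with 4 lower at an unadjusted p under 0.05 and none with DESeq2 or limma voom. All 7 had a lower mean CPM in colon tuft than the plain mean of the other tissues, since the comparison averages log levels and thymus tuft was far higher. None was higher without gall bladder or trachea tuft in the mean, and 2 or 4 were higher without colon tuft library 2 or 3. Without trachea tuft 4 were lower. H2-Aa, an MHC class II chain, was at 15.1, 48, 44.1 and 17.1 CPM in colon tuft, 3.51, 0.707 and 0.785 CPM in small intestine tuft and 1165, 1434, 1474 and 1327 CPM in thymus tuft. Of 26 interferon-stimulated genes 4 were higher and 2 lower, where 10.7% of all genes were higher and 5.78% lower. Without gall bladder tuft, 2 of the 26 were higher. Oas2, an antiviral enzyme, was at 315, 260.2, 181 and 413 CPM in colon tuft, 732, 756 and 742 CPM in small intestine tuft and 35.6, 64.8, 87.8 and 43.8 CPM in thymus tuft.

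Each remaining marker list had 1 or 2 members called higher than in the mean of the other tissues. Over all genes 10.7% were higher and 5.78% lower, but these lists are short, so 1 call is a large share. Of 11 Paneth markers 2 were higher and 1 lower, of 9 thymic epithelium markers 2 were higher, of 9 fibroblast and muscle markers 1 was higher, of 5 B and plasma cell markers 2 were higher and 1 lower, and of 3 endothelium markers 1 was higher and 1 lower. Of 5 erythroid markers 1 was higher and also colon-restricted, with a summed level of the list of 0.38 to 3.118 CPM in colon tuft. The B and plasma cell markers were called higher by neither DESeq2 nor limma voom. Leaving out 1 colon library also removed calls, with 1 Paneth marker higher without library 3 or 4, 1 thymic epithelium marker without library 2, 1 B and plasma cell marker without library 1 or 3, and no endothelium marker without library 3. Foxn1, the thymic epithelium factor, had a lower mean CPM in colon tuft than the plain mean and was at 0.613, 3.5, 1.72 and 2.44 CPM in colon tuft, 0.0224, 0 and 0 CPM in small intestine tuft and 204, 209, 148 and 157 CPM in thymus tuft. Summed levels in colon tuft libraries were 3.7 to 8.63 CPM for T cell, 21.1 to 36.1 CPM for myeloid and 2.69 to 7.67 CPM for fibroblast and muscle markers.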
